A study of Mus musculus with 3 samples.

Results

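The nuclear genes of the mitochondrial respiratory chain were examined in effector memory CD4 T cells of the mouse. They were taken as the protein-coding genes of the GENCODE M21 annotation whose symbols begin with Nduf, Uqcr, Cox4 to Cox8 or Atp5, or are Sdha, Sdhb, Sdhc or Sdhd, whatever their values. The symbols select 94 gene models with 93 different symbols, out of 22028 protein-coding genes and 55536 Ensembl genes in the deposited tables. Complex I has 46 of them, complex II has 4, complex III has 8, complex IV has 18 and complex V has 18. Besides structural subunits, the symbols take in 8 assembly factors of complex I (Ndufaf1 to Ndufaf8), which are not part of the finished complex, and Ndufa4, which is now usually counted with complex IV.

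The cells came from 1 adult male mouse of the strain B6.SJL-Ptprca Pepcb/BoyJ, aged 5 months, and were labelled as primary alpha-beta T cells. BoyJ mice are C57BL/6 congenics that carry the Ptprc allele read as CD45.1. The labels give 1 biosample, no treatment, and 3 polyA-selected RNA libraries numbered as technical replicates 1, 2 and 3. With 1 group there was no comparison between conditions, and each SD or p-value below measures only the spread between these libraries, which may be technical. No source used here gives the sort gate.

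The respiratory chain passes electrons from NADH (complex I, NADH dehydrogenase) and from succinate (complex II, succinate dehydrogenase) through complex III (the cytochrome bc1 complex) to oxygen at complex IV (cytochrome c oxidase). Complexes I, III and IV pump protons, and complex V, the ATP synthase, uses that gradient to make ATP. Most subunits are encoded in the nucleus and imported, while a small set is encoded in mitochondrial DNA, so that every complex except complex II is assembled from both sources. Memory T cells are known for relying on mitochondrial respiration and for a reserve of respiratory capacity.

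The expected counts in the gene tables summed to 17474991, 15303615 and 16882311 in libraries 1, 2 and 3. All 6 alpha-beta T cell markers were detected, a gene being called detected at a TPM (transcripts per 1000000 transcripts, a level per unit of length) of at least 1 in every library. None of 4 B cell, 4 erythroid and 2 platelet markers was detected, with summed TPM of 1.56 to 3.08, 1.5 to 7.13 and 0 to 0.30 over the libraries. In the CD8 list Cd8a was at 0 to 0.08 TPM and Cd8b1 at 5.65 to 10.8 TPM. Of 4 myeloid markers Cd68 alone was detected (3.43 to 6.24 TPM), and of 2 NK markers Klrb1c alone (7.74 to 9.27 TPM). Library 1 stood apart throughout: across the 9900 detected protein-coding genes, Spearman's rho of TPM was 0.924 and 0.925 for library 1 against libraries 2 and 3 and 0.994 between those. Across the 86 detected respiratory chain genes it was 0.864, 0.862 and 0.991. These are correlations across genes, which are not independent replicates.

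Sequences are shown first for the c subunit of ATP synthase, because they bear on how far the levels of its 3 genes can be told apart. Atp5g1 (chr11:96068852-96075670 on mm10, minus strand), Atp5g2 (chr15:102662864-102672352, minus strand) and Atp5g3 (chr2:73908447-73911326, minus strand) encode the proton-carrying c ring. The last 120 coding bases of the leading coding transcript of each gene, stop codon included, are given from GENCODE M21. Capitals mark the 31 positions at which at least 1 of the genes differs.
Atp5g1: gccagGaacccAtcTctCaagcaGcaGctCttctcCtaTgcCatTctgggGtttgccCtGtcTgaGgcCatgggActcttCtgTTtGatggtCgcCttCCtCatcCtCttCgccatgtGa
Atp5g2: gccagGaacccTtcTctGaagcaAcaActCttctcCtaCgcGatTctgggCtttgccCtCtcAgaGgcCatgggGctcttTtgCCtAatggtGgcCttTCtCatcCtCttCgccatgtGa
Atp5g3: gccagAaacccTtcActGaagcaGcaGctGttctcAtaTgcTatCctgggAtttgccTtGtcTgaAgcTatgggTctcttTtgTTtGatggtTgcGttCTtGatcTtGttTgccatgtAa

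Over the last 228 coding bases, Atp5g1 and Atp5g2 differed at 34 positions (85.1% identity), Atp5g1 and Atp5g3 at 46 (79.8%) and Atp5g2 and Atp5g3 at 49 (78.5%). All these differences were silent: the 75 codons before the stop gave the same amino acids in every pair. The longest run of identical bases between coding sequences was 21 for Atp5g1 and Atp5g2, 11 for Atp5g1 and Atp5g3 and 8 for Atp5g2 and Atp5g3. No stretch of 50 coding bases was therefore shared between the 3 genes. With processed pseudogenes, described further on, the leading transcripts of Atp5g1 and Atp5g2 shared such stretches, at 66.0% and 87.4% of their 50-base windows, and that of Atp5g3 shared none.

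Promoter stretches of 3 genes are shown because nuclear respiratory factors are known to act on many genes of this set. Promoter windows of 300 bases, from 250 before to 50 after the start, were taken from RefSeq on GRCm38.p6, and 72 of the 86 detected genes matched 77 windows. NRF-1, ETS, YY1 and ERR motifs were searched on both strands as fixed letters: NRF-1 (GCATGCG), ETS (CCGGAAG, the core read by GABP, also called NRF-2), YY1 (AAGATGG) and ERR (AAGGTCA); an ETS and a YY1 match can share their AAG. For each complex, the gene with the highest mean TPM was chosen whose motif stretch before the start overlaps no annotated exon, which complexes II and IV did not offer. Capitals mark the motif.
Ndufa6: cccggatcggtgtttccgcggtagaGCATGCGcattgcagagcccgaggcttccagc
Uqcr11: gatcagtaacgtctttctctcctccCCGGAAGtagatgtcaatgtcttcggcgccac
Atp5g3: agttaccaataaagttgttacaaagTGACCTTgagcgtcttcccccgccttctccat

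The Ndufa6 stretch (chr15:82354343-82354399, minus strand) holds the NRF-1 letters beginning 83 bases before the start. The Uqcr11 stretch (chr10:80406856-80406912, minus strand) holds the ETS letters beginning 66 bases before the start. The Atp5g3 stretch (chr2:73911347-73911403, minus strand) holds the ERR letters as their reverse complement, 52 bases before the start. NRF-1 letters were in 13 of 77 windows (16.9%), against 3.58% of all 32851 windows and 6.97% of the 10213 windows of detected protein-coding genes. ETS letters were in 18 (23.4%, against 8.86% and 20.0%), YY1 letters in 12 (15.6%, against 6.34% and 7.72%) and ERR letters in 8 (10.4%, against 4.72% and 3.07%). The letters TATAAA were in 6 (7.79%, against 13.6% and 6.73%). At least 1 of the NRF-1, ETS and YY1 motifs was in 35 windows (45.5%, against 17.3% and 31.0%). These are matches of letters and were not tested as binding sites. The 35 genes with at least 1 of these 3 motifs had a median mean TPM of 123, and the 37 without had 128.

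The genes also often start beside another gene. A protein-coding neighbour on the other strand with its start within 1000 bases was found for 23 of the 86 detected genes (26.7%), against 11.5% of detected protein-coding genes. None of the pairs counted here had overlapping exons, and genes that overlap a gene on the other strand are described further on. The closest of the counted pairs were Ndufa7 with the ribosomal protein gene Rps28 (10 bases), Ndufb9 with Tatdn1 (18 bases) and Sdha with Ccdc127 (29 bases). Levels within such pairs were not alike by rule: Ndufa7 was at 219 TPM and Rps28 at 552 TPM, Sdha at 225 and Ccdc127 at 26.6, and Ndufa5 at 97.7 beside Asb15 at 0.017. Their leading transcripts were short, with a median of 624 bases and 4 exons, against 2279 bases and 8 exons over detected protein-coding genes.

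Nearly the whole chain was expressed. Of the 94 gene models 86 were detected, against 44.9% of all protein-coding genes, and their median mean TPM was 122, against 28.9 for the 9900 detected protein-coding genes. Above that median lay 77 of the 86. Their summed TPM was 14700 in library 1, 12037 in library 2 and 12886 in library 3, which is 1.32% ± 0.136 (SD, n = 3 libraries) of all TPM. Levels spanned 110-fold between detected genes, from Atp5g2 at 6.99 ± 3.27 TPM to Atp5b at 767 ± 196 TPM (SD, n = 3).

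**Figure D1:**
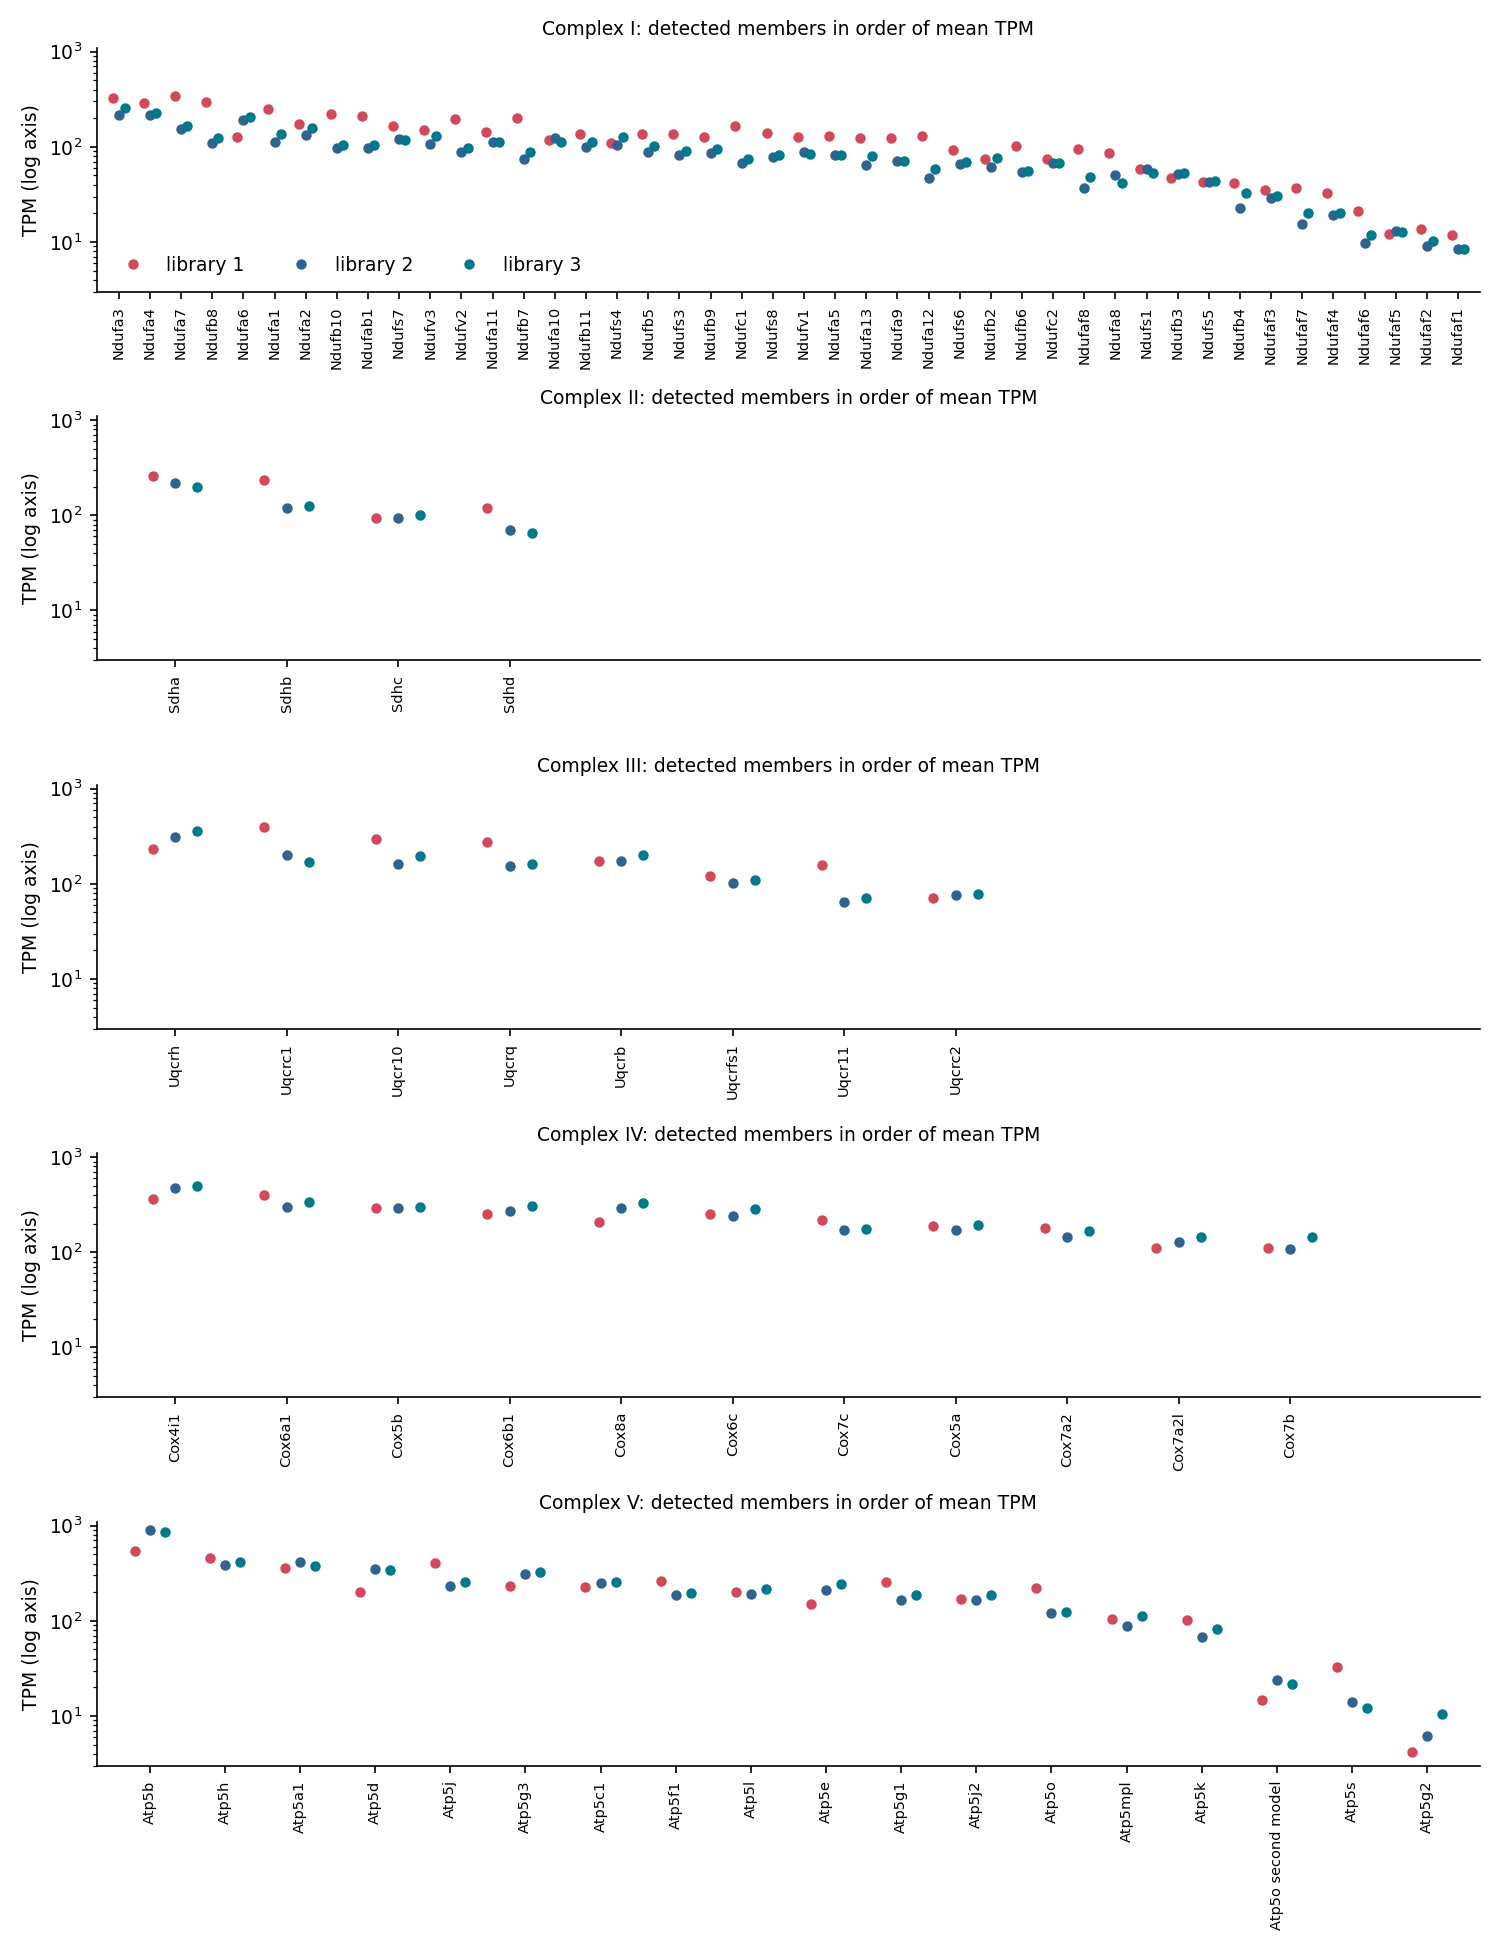
TPM of the detected genes (vertical log axis) in libraries 1, 2 and 3, with 1 panel for each complex and genes in order of their mean; 1 gene of complex I is not shown. Libraries 2 and 3 lie close together, and library 1 lies above them for most genes of complex I but not for those of complex IV.

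The 8 genes that were not detected are all isoforms known from other tissues or from hypoxia. Cox7b2 (a testis form), Cox8b (a heart and muscle form) and Ndufa4l2 (a hypoxia-induced relative of Ndufa4) had no count in any library, and a count of 0 allows up to 3 counts per library. Cox4i2 (a lung form) and Cox8c (a testis form) had 1 count each in library 3. Cox7a1 and Cox6a2, the heart and muscle forms, had 4 and 6 counts over the libraries. Cox6b2 (a testis form) had 1, 6 and 5 counts, or 0.26, 1.65 and 1.39 TPM, and missed the criterion through library 1. All 8 were listed below 2 TPM in every library.

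Each of these isoforms has a partner that carried nearly all of the set's TPM. Cox4i1 made up 100.0% ± 0.016 of Cox4i, Cox6a1 99.9% ± 0.024 of Cox6a, Cox6b1 99.6% ± 0.25 of Cox6b, Cox7a2 99.8% ± 0.18 of Cox7a and Cox8a 100.0% ± 0.041 of Cox8 (SD, n = 3). For Cox7b over Cox7b2 and Ndufa4 over Ndufa4l2 the share was 100% in every library. The c ring was the exception. Atp5g1 took 51.6%, 34.2% and 35.9% of the summed TPM in libraries 1, 2 and 3, Atp5g3 took 47.6%, 64.5% and 62.1%, and Atp5g2 took 0.858%, 1.28% and 2.04%. Atp5g1 and Atp5g3 thus made up nearly all of the summed TPM of the 3 genes in every library, and their order in library 1 was the opposite of that in libraries 2 and 3. These shares are of RNA, and they changed with pseudogene copies added and in the whole-number gene table, both described below.

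Median TPM over all genes of a complex was 98.4 for complex I, 128 for complex II, 190 for complex III, 146 for complex IV and 203 for complex V. Over detected genes only it was 260 for complex IV, the highest of the 5. The order turned in the whole-number gene table described below, where, per kilobase and scaled to 1000000, the medians over all genes were 185, 232, 229, 95.2 and 180 for complexes I to V, with complex IV lowest. Subunits of a complex meet in fixed proportions in the protein. In TPM the members differed by 2.68-fold in complex II, 4.0-fold in complex III and 3.61-fold among the detected genes of complex IV. Complex I spanned 27.8-fold with its assembly factors, which are not subunits. Its 36 subunits, Ndufa4 left out, ran from 32.3 to 264 TPM. Complex V spanned 110-fold, or 39.2-fold without Atp5g2, whose pseudogene copies received 95.2% of the counts of gene and copies together. Next lowest in complex V were Atp5s, a coupling factor (19.6 TPM), and a second gene model named Atp5o, described below (20.2 TPM). Atp5k followed at 83.3 TPM. The medians of the complexes did not differ by the same margin in each library: complex I was at 124, 76.6 and 80.8 TPM, and complex IV at 146, 136 and 157.

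In complex I the 36 detected subunits, Ndufa4 left out, had a median of 103 TPM, and the 8 assembly factors had 19.1. Ndufa3, a small membrane-arm subunit (chr7:3617373-3620327, plus strand), led with 325, 214 and 254 TPM in libraries 1, 2 and 3. Ndufa4 followed with 286, 218 and 227, and Ndufa7, a matrix-arm subunit, with 340, 154 and 164. Library 1 was the highest of the 3 for each of them.

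The nuclear core subunits described here, which carry the flavin and the iron-sulphur clusters or lie next to the quinone site, ranged 2.39-fold in mean TPM, from Ndufs1 to Ndufs7. Ndufs7, at the quinone site, was at 167, 121 and 117 TPM. Ndufv2, of the NADH-oxidising module, was at 198, 87.7 and 97.5, and its partner Ndufv1, which binds flavin, at 126, 88.1 and 83.2. Ndufs3 was at 136, 83.0 and 91.0, and Ndufs8 at 138, 78.5 and 81.4. Ndufs1, the largest core subunit, was nearly level over the libraries, at 58.2, 57.9 and 53.2. The order of Ndufs8 and Ndufv1 (means 99.4 and 99.2) did not exceed their spread.

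Among accessory subunits the lowest was Ndufb4 at 32.3 ± 9.49 TPM, a gene whose count is uncertain for the reason given below. The lowest detected genes of complex I were the assembly factors Ndufaf1 (9.51 ± 1.96 TPM) and Ndufaf2 (10.9 ± 2.42 TPM), whose order lies within their spread. Ndufaf8 was the highest assembly factor, at 95.4, 37.3 and 48.3 TPM.

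All 4 subunits of complex II were detected. Sdha, the flavoprotein (chr13:74322254-74350280, minus strand), was at 257, 219 and 199 TPM, and Sdhb, the iron-sulphur subunit, at 236, 121 and 124. The membrane anchors Sdhc and Sdhd were at 93.7, 93.6 and 99.8 and at 118, 69.3 and 64.5. Library 1 had the highest level of Sdhb and of Sdhd, clear of the other libraries, while Sdhc stayed level.

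Complex III was led by Uqcrh, the hinge protein (chr4:116066965-116075071, minus strand), at 232, 312 and 356 TPM. Uqcrc1 and Uqcrc2, the core proteins, were at 394, 201 and 168 and at 70.9, 75.6 and 78.6. Uqcrc1 was thus above Uqcrc2 in every library, by 3.39-fold on the mean TPM, with the widest gap in library 1. Among small subunits, Uqcr10 was at 300, 162 and 196, Uqcrq at 274, 155 and 163, Uqcrb at 175, 174 and 199, and Uqcr11 at 159, 63.9 and 71.3. Uqcrfs1, the Rieske iron-sulphur protein, was at 122, 102 and 110. The hinge protein was lower in library 1 than in the others, and Uqcrc1, Uqcr10, Uqcrq and Uqcr11 were higher.

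In complex IV the highest genes were Cox4i1 (chr8:120668222-120674207, plus strand) at 360, 469 and 493 TPM, Cox6a1 at 396, 300 and 339, and Cox5b at 290, 292 and 301. The lowest detected were Cox7b at 112, 108 and 145 and Cox7a2l, a factor of supercomplex assembly, at 111, 128 and 144. Cox6b1 (254, 274 and 311), Cox8a (209, 289 and 334) and Cox7a2 (179, 144 and 168) lay between them. Cox5b varied least between libraries, and Cox4i1 and Cox8a were lowest in library 1.

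In complex V the catalytic beta subunit gene Atp5b (chr10:128083273-128090391, plus strand) led the whole chain with 541, 893 and 867 TPM. Atp5h, of the peripheral stalk, was at 459, 389 and 419, and the alpha subunit gene Atp5a1 at 364, 415 and 378. Atp5a1 was thus at 0.503 of Atp5b by mean TPM, although the F1 head holds alpha and beta in equal number. It was below Atp5b in every library, least so in library 1. In the whole-number gene table described below Atp5a1 had 2809, 2717 and 2822 counts and Atp5b 2727, 2912 and 2988, not divided by length. Atp5g2, of the c ring, was at 4.21, 6.18 and 10.6 TPM, and Atp5s, a coupling factor, at 32.7, 14.0 and 12.1. A second gene model also named Atp5o (chr16:91684398-91926982) was at 14.6, 24.1 and 21.8, and 89.8% of the 50-base windows of its leading transcript recur in other genes, so its counts are uncertain.

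Library 1 was then set against libraries 2 and 3. Homogeneity over the 3 libraries was tested with Pearson's chi-square test on rounded expected counts, over all 13177 genes with at least 30 counts, with Benjamini-Hochberg adjustment; the test weighs only counting error. Of the 86 genes tested 80 varied at an adjusted p below 0.05, against 75.8% of all genes tested. Their median total count was 2500, against 1087 over all genes tested. The share is not far above the background, and such calls are easier at higher counts.

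A gene was counted as higher or lower in library 1 if it varied, lay outside both other libraries and differed at least 1.5-fold from their geometric mean in counts per 1000000 counts (CPM, pseudocount 0.5). By that count 30 of the 86 were higher in library 1, against 17.7% of all genes tested, and 3 were lower, against 27.1%. The median log2 ratio of library 1 was 0.39 over the 86 genes and -0.09 over all genes tested. With the chi-square divided by 19.9, its median excess over counting error, 22 still varied (21.6% of all genes did), 19 of them higher (8.33%) and 2 lower (10.6%). DESeq2 size factors moved the median of all genes by 0.14 on the log2 scale and TMM factors moved it by 0.05. With DESeq2 size factors 42 of the 86 were higher, against 23.7% of all genes tested, and 1 was lower, against 22.2%.

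**Figure D2:**
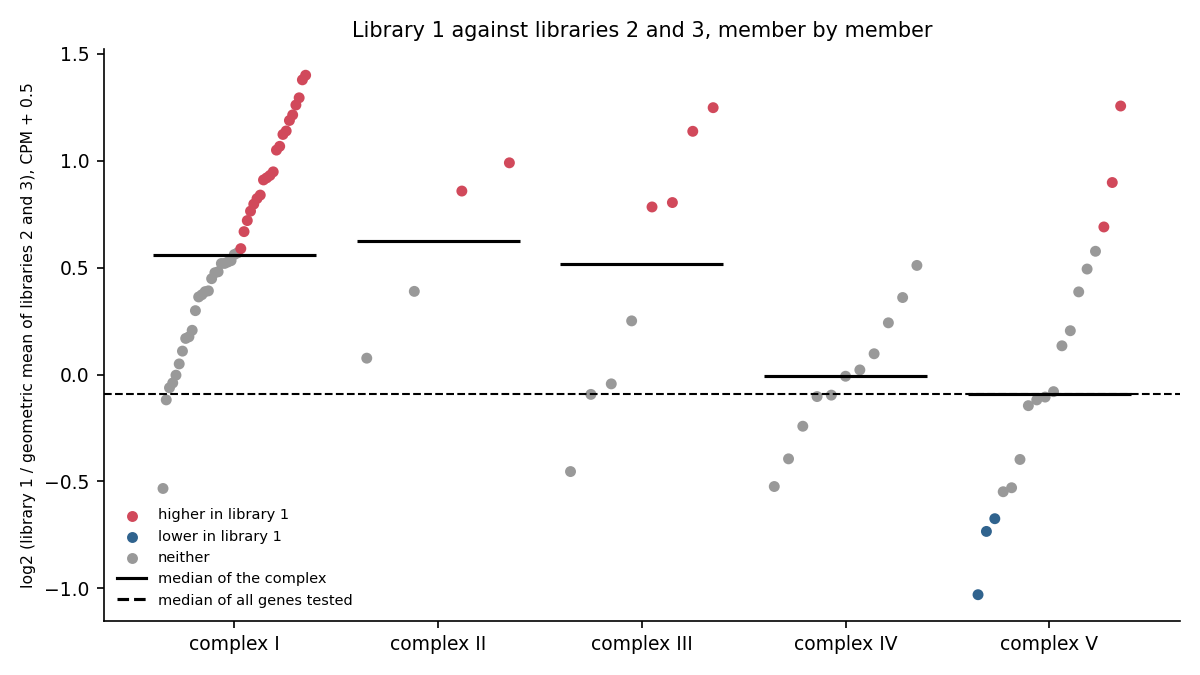
Log2 ratio of library 1 to the geometric mean of libraries 2 and 3 in CPM (vertical axis) for each gene tested, by complex, with red and blue points for genes counted as higher and lower in library 1. Solid lines mark the medians of complexes I to V (0.56, 0.62, 0.52, -0.01 and -0.09), and the dashed line marks the median of all genes tested, at -0.09; under DESeq2 size factors the medians of complexes IV and V are above 0.

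By complex, the counts and medians shown in the plot of log2 ratios were as follows. Complex I had 21 of 45 genes higher and 0 lower, complex II 2 of 4 and 0, complex III 4 of 8 and 0, complex IV 0 of 11 and 0, and complex V 3 of 18 and 3. Of complex I genes 40 of 45 had a ratio above 0, and of complex IV genes 5 of 11. The median log2 ratio was 0.56 for complex I, 0.62 for complex II and 0.52 for complex III, but -0.01 for complex IV and -0.09 for complex V. With DESeq2 size factors the last pair became 0.15 and 0.07, and complexes I to III 0.72, 0.78 and 0.68; a change of size factors shifts every gene by nearly the same amount. The genes higher in library 1 were then 30 in complex I, 2 in complex II, 4 in complex III, 1 in complex IV and 5 in complex V. With 1 library on one side, the difference between complexes has no replicate check and was not tested.

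Within complex V the parts of the enzyme differed in direction by expected counts and library totals. All 5 F1 genes had a ratio below 0 (median -0.53). Atp5a1 (-0.12) and Atp5c1 (-0.11) were above 0 with DESeq2 size factors (0.04 and 0.05) and in the whole-number gene table (0.04 and 0.05). In that table Atp5b, Atp5d and Atp5e were lower in library 1 by less than in the expected counts. Atp5b had 2727, 2912 and 2988 counts there, Atp5d 701, 867 and 921, and Atp5e 202, 232 and 254. Library totals in that table were 5104745, 5047736 and 5278506. All 4 peripheral stalk genes had a ratio above 0 (median 0.54). Atp5b had 8925, 12377 and 13884 expected counts, a log2 ratio of -0.67. Atp5d, the delta subunit, had 1917, 2731 and 3162 (log2 ratio -0.73, adjusted p = 6.3e-85 by the chi-square test on counting error). Atp5g2 had 23.4, 36.3 and 73.1 (log2 ratio -1.03, adjusted p = 6.29e-07). For these 3 genes library 1 lay below both others, and Atp5g2 was also spread between libraries 2 and 3. With DESeq2 size factors Atp5g2 alone was still counted as lower, with Atp5b at -0.52 and Atp5d at -0.58. With the chi-square divided by its median excess, Atp5b and Atp5d were still counted as lower and Atp5g2 was not. The adjusted p of that divided chi-square test was 1.67e-15, 0.000431 and 0.972 for Atp5b, Atp5d and Atp5g2. The next lowest ratios were those of the second Atp5o model (-0.55) and of Ndufa6 (-0.53), the matrix-arm subunit at 126, 193 and 205 TPM.

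The highest ratios belonged to Ndufb8, Ndufa12, Ndufaf6, Ndufb7 and Atp5s. Ndufb8, a membrane-arm subunit (chr19:44548572-44555440, minus strand), had 1770, 556 and 673 counts (log2 ratio 1.40, adjusted p = 4.08e-162). Ndufa12, of the matrix arm, had 753, 214 and 319 (1.38, adjusted p = 2.28e-68), and Ndufb7, of the membrane arm, had 1248, 403 and 558 (1.26, adjusted p = 4.85e-97). Ndufaf6, an assembly factor, had 211, 62 and 89 (1.29), and Atp5s had 303, 110 and 114 (1.26). Library 1 was above both other libraries for each of them. With the chi-square divided by its median excess, Ndufb8, Ndufa12 and Ndufb7 still varied (adjusted p = 9.76e-08, 0.00248 and 0.000117 by that test). Ndufaf6 and Atp5s did not (adjusted p = 0.360 and 0.203 by the same test). Libraries 2 and 3 also differed for Ndufa12 and Ndufb7 (log2 ratio of library 3 to library 2 of 0.42 and 0.32, adjusted p = 0.0062 and 0.0051 by the chi-square test on counting error).

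Other features moved with library 1. The log2 ratio of all genes depended on transcript length: its median was 0.02 for genes up to 754 bases, 0.25 from 755 to 1168 bases and -0.79 in the longest of 10 classes. Of the 86 genes 55 were in the shortest class, where their median was 0.39. Less the median of its length class, the ratio was 0.51 for complex I, 0.51 for complex II, 0.39 for complex III, -0.03 for complex IV and -0.10 for complex V. Less the median of its GC class it was 0.66, 0.62, 0.60, 0.03 and 0.02. Among alpha-beta T cell markers Cd4 (269, 541 and 523 TPM) and Cd3e (374, 762 and 742) were lower in library 1 and Trac (6922, 3647 and 3493) was higher, and the 6 summed to 11200, 8181 and 8262. Among effector memory markers 3 of 4 were lower in library 1: S100a4 (23.2, 178 and 224), Cd44 (56.3, 149.99 and 141) and Ccl5 (615, 965 and 1141). Itgb1 was at 990.0, 948 and 831, and the list summed to 1685, 2240 and 2336, while naive and central memory markers summed to 625, 634 and 597. The part of a different mix of cells in these ratios was not tested, and in bulk RNA fewer cells of a type and less RNA per cell cannot be told apart.

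The subunits encoded in mitochondrial DNA were mostly lower in library 1. Of 13 such genes 12 were lower, against 27.1% of all genes tested, and 0 were higher, against 17.7%, with summed TPM of 10980, 29274 and 30777. Nuclear members summed to 1.34 of the mitochondrially encoded level in library 1, and to 0.411 and 0.419 in libraries 2 and 3. TPM sums to a fixed total in each library, so the shares are not independent of each other.

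Libraries 2 and 3 differed less, yet the genes called between them lay in 1 direction. On these libraries alone 39 of the 86 genes varied by the chi-square test, against 16.7% of 12468 genes tested. All 39 were higher in library 3, against 7.52% of genes tested. The test weighs only counting error here too, and such calls are easier at the higher counts of the 86 genes. The median log2 ratio of library 3 to library 2 was 0.19 over the 86 genes and -0.01 over all genes tested. By complex it was 0.19 for complex I, 0.05 for complex II, 0.21 for complex III, 0.25 for complex IV and 0.16 for complex V. Complex II had 0 genes called in this comparison and complex IV had 9 of 11. Some genes that were not called lay the other way, such as Ndufa8 (-0.19) and Uqcrc1 (-0.10). The largest difference was 0.76, for Atp5g2, and the median coefficient of variation of TPM between libraries 2 and 3 was 6.79%, against 20.8% over all 3.

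How firmly these levels can be read depends on copies of the genes elsewhere in the genome. Respiratory chain messages are known for having left many processed pseudogenes, copies without introns. Of the 94 gene models 45 shared at least 1 stretch of 50 bases of their leading transcript with another annotated gene, and 33 with a processed pseudogene. The reads were assigned to transcripts by estimation where they matched several, per the expected counts in the tables. In 6 genes the pseudogenes received at least 10% of the counts of gene and copies together.

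**Figure D3:**
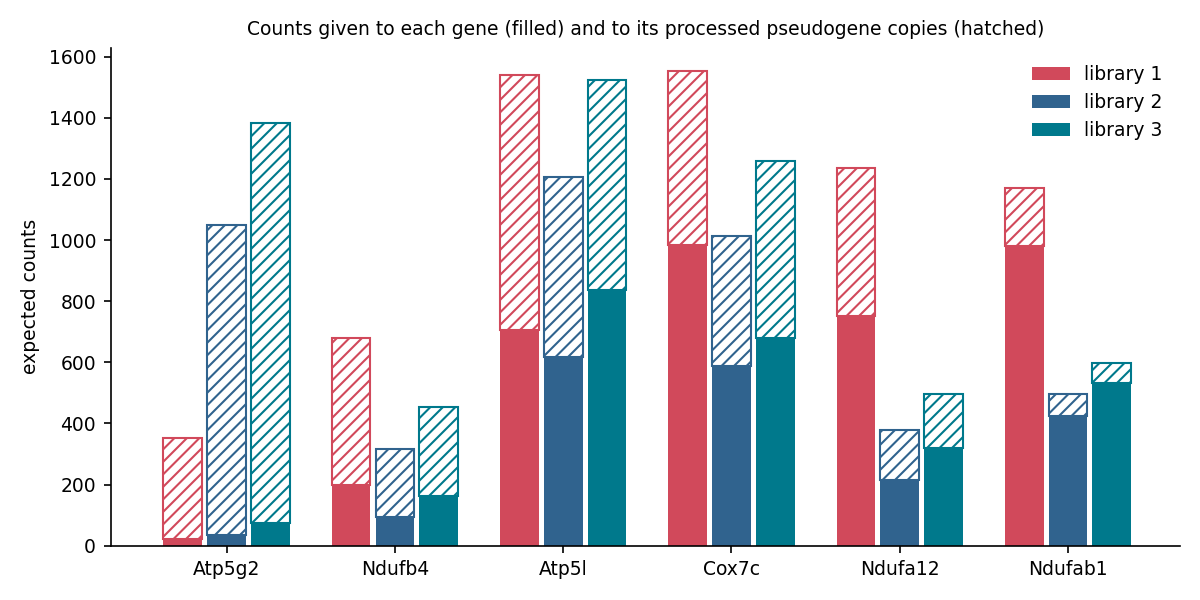
Expected counts (vertical axis) given to 6 genes (filled bars) and to their processed pseudogene copies (hatched bars stacked on top), for libraries 1, 2 and 3. The copies of Atp5g2 take 93.4% to 96.5% of the counts in each library, and those of Ndufab1 take 10.7% to 16.3%.

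For Atp5g2 the copies received 329, 1013 and 1311 counts against 23.4, 36.3 and 73.1 for the gene, a mean share of 95.2%, nearly all at Gm10175 (chr7:23946646-23947290). Ndufb4 had 199, 95.0 and 163 counts and its copies 480, 221 and 290, all at Ndufb4c (chr15:73809507-73809896). For Atp5l, a small membrane subunit (subunit g), the copies took 49.5%, led by Gm10221 (chr5:24581554-24581862). The copies of Cox7c took 41.1%, led by Gm12338 (chr11:75599763-75599954), that of Ndufa12 took 39.1% (Gm15920, chr5:130188395-130188796), and those of Ndufab1, the acyl carrier protein, took 14.4%, led by Gm4459 (chr7:139659688-139660155). Whether these reads came from the gene or its copies cannot be told apart from the tables.

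With each gene's copies added, the c ring changed most. Atp5g2 then made up 9.79%, 28.8% and 29.9% of the summed TPM in libraries 1, 2 and 3, Atp5g1 50.04%, 27.2% and 27.6%, and Atp5g3 40.2%, 44.0% and 42.5%. Atp5g2 was lower in library 1 either way, with a log2 ratio of -1.03 alone and -1.87 with copies. Ndufb4 had a log2 ratio of 0.53 alone and 0.71 with its copies, which put it among the genes higher in library 1.

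The whole-number gene table, made from a separate alignment with the older GENCODE M4 annotation, gave another view of the same genes. Over 10957 genes it held a median of 51.5 counts per 100 expected counts. The 42 tested members without a shared window had 52.3, the 27 with fewer than 30% of windows shared had 40.8, and the 16 with at least 30% shared had 15.3. The lowest were Atp5g1 (1.14 per 100), Atp5l (1.16), Ndufab1 (2.12), Atp5g2 (3.01) and Cox7c (5.02). In that table Atp5g3 made up 97.6% of the c ring, so the share of Atp5g1, 34.2% to 51.6% by TPM, rests on reads that the whole-number table does not hold.

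**Figure D4:**
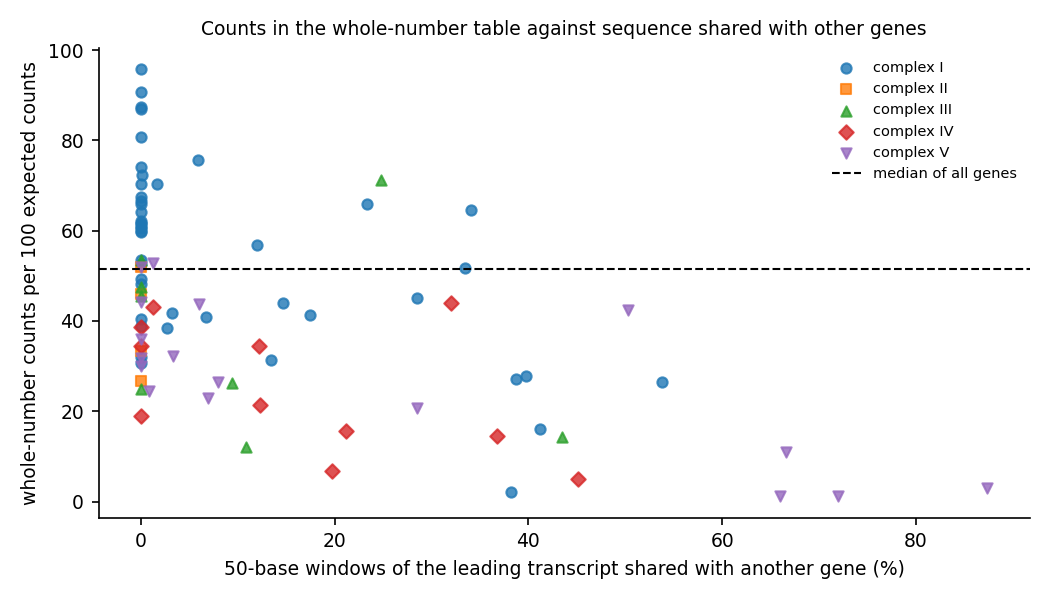
Whole-number counts per 100 expected counts (vertical axis) against the share of 50-base windows of the leading transcript that recur in another gene (horizontal axis), 1 point for each detected gene with a row in both tables, marked by complex. Genes without a shared window scatter from 18.9 to 95.8 around the dashed median of all genes at 51.5, and the 5 lowest points lie at 38.2% shared windows or more.

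The direction of library 1 was similar in the whole-number table. The median log2 ratio was 0.54 for complex I, with 44 of 45 genes above 0, then 0.47 for complex II, 0.40 for complex III, 0.05 for complex IV and 0.14 for complex V. Complexes I to III thus had higher ratios than IV and V in both tables, and no member was called lower in library 1 in this table.

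The transcript tables divide each gene's TPM among its annotated transcripts. In 73 of the 86 detected genes the leading transcript took more than 50% of the TPM, in 32 more than 90%, and in 78 the same transcript led in every library. The leading transcript was protein-coding in 65. Protein-coding transcripts took a median of 92.0% of a gene's TPM, against 85.2% over all detected protein-coding genes. Even so, 20 of the 86 (23.3%) had less than 50% in protein-coding transcripts, against 16.8% of detected protein-coding genes.

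**Figure D5:**
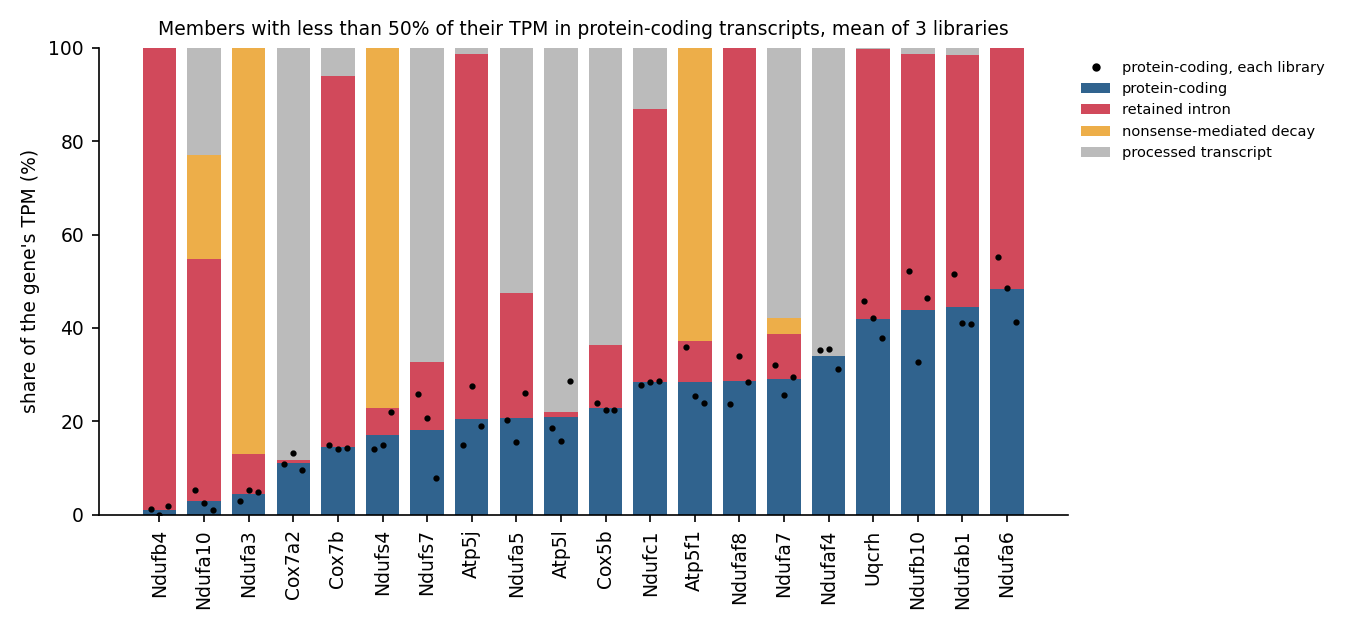
Share of each gene's TPM (vertical axis, percent, mean of 3 libraries) by class of transcript for the 20 genes with less than 50% in protein-coding transcripts, with dots for the protein-coding share in libraries 1, 2 and 3. Ndufb4, at 1.08%, has nearly all of its TPM in transcripts classed as retained intron, and the dots of Cox7b lie between 13.97% and 15.03%.

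The smallest protein-coding shares were those of Ndufb4 (1.08% ± 0.98), Ndufa10 (2.95% ± 2.15), Ndufa3 (4.37% ± 1.23), Cox7a2 (11.2% ± 1.85) and Cox7b (14.4% ± 0.53; SD, n = 3). Ndufb4-202, classed as retained intron, took 89.1% of Ndufb4. Ndufa3-204, classed as a target of nonsense-mediated decay, took 86.7% of Ndufa3, the highest gene of complex I. Cox7a2-203, classed as a processed transcript, took 88.4% of Cox7a2, and Cox7b-203, classed as retained intron, 79.5% of Cox7b. In Ndufa10 no transcript reached 50%. TPM divides by length and so favours short models, but by expected counts 18 genes still had less than 50% in protein-coding transcripts. The reads are short, the models overlap, and such shares are estimates for these annotated models.

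Some genes overlap a gene on the other strand, and no source used here says whether counting used strand. The overlap covered 65.6% of the exon bases of Ndufaf2 (with B230220B15Rik, 6 counts), 39.0% of Ndufb6 (with Smim27, 399 counts) and 29.98% of Ndufa13 (with Tssk6, 54.6 counts). Uqcrc2 (19.7%, with Pdzd9), Atp5o (18.1%, with Gm15976) and Ndufb11 (12.9%, with Rbm10) followed. The partners of Ndufaf2, Ndufb6 and Ndufa13 had fewer counts than the genes themselves (206, 1318 and 3274). Rbm10, with 2909 counts, was close to Ndufb11, with 3006, so the value of Ndufb11 is the less certain. Gabpa, with 3479 counts, overlapped 12.7% of Atp5j, with 4796. Over smaller shares of exon bases, some partners had more counts than the gene. Among them were Vps13b (7984 counts, 7.01% of Cox6c with 3904), Impdh2 (6045, 2.64% of Ndufaf3 with 583) and Braf (4362, 2.59% of Ndufb2 with 1103).

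Genes that build or serve the complexes were taken from fixed lists, and their counts stand against 17.7% higher and 27.1% lower in library 1 among all genes tested. All 19 complex IV assembly factors were detected, with 8 higher and 0 lower in library 1. The subunits of complex IV had 0 of 11 higher, and the difference between the lists was not tested. Cox17, a copper chaperone, was the highest, at 276, 153 and 162 TPM, followed by Cox16 at 137, 130 and 158. All 4 complex II assembly factors were detected, 2 of them higher in library 1, with Sdhaf2 at 36.0, 38.2 and 39.4 and Sdhaf4 at 45.9, 20.2 and 20.9.

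Of 8 further complex I assembly genes 7 were found under their symbols and detected, 1 higher and 1 lower, led by Acad9 (52.8, 46.2 and 35.8 TPM). In the list for complex III 7 of 7 were detected and 3 were higher, led by Cyc1, the cytochrome c1 subunit whose symbol lies outside the rule (188, 134 and 139). In the list for complex V all 6 were detected and 3 were higher, Atp5s among them, led by Usmg5, a small subunit also outside the rule (731, 633 and 672). Among electron carriers and exchange proteins 7 of 9 were detected and 4 were higher, led by the phosphate carrier Slc25a3 (591, 817 and 743) and the ADP/ATP carrier Slc25a5 (877, 443 and 454). The testis forms Cyct and Slc25a31 were at 0. In coenzyme Q synthesis 13 of 13 were detected, 3 were higher and 0 lower.

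Of 15 nuclear regulators of these genes 12 were detected, and of the 13 tested 0 were higher and 4 were lower in library 1, against 17.7% and 27.1% of all genes tested. Gabpb1, a subunit of the ETS factor GABP, was at 281, 229 and 218 TPM and Nrf1 at 105, 74.95 and 65.8. The receptor Esrra was at 5.84, 14.4 and 14.6. Not detected were Esrrb (0 in every library), Esrrg (0.21 in library 3 only) and Ppargc1a, the coactivator known from muscle and brown fat, at 0.11, 0.57 and 0.57. The related coactivators Ppargc1b (6.75, 12.7 and 11.1) and Pprc1 (41.0, 50.2 and 46.6) were detected. In glycolysis 4 of 18 genes tested were higher and 6 lower, and in the citric acid cycle 3 of 13 were higher and 3 lower. These shares lie near those of all genes tested.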

How the data were processed

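PolyA-selected RNA of 1 biosample was measured in 3 libraries. Per the file headers and the deposited notes, gene and transcript tables are on mm10 with GENCODE M21. The authors deposited expected counts, estimated counts in which a read matching several transcripts is divided, and TPM scaled within each library. The deposited percent values say what part of a gene belongs to each transcript. A headerless table holds whole-number counts that the authors deposited on GENCODE M4. No source used here names the aligner, quantifier or counter. Rows without an Ensembl ID (26345) entered neither library sizes nor tests. Expected counts were rounded. Genes with at least 30 counts entered the chi-square test (scipy 1.17.1), with library totals, TMM factors (edgeR 4.0.16) or DESeq2 1.42.0 size factors; 1 group allows no quasi-likelihood contrast. The test was checked on counts simulated with counting error only, so the check does not cover the excess spread of these libraries. Its divisor for excess spread was redefined after a first form had been computed and its counts seen; both are reported. Shared windows were exact 50-base matches between leading transcripts and other annotated transcripts. Depths of 15303615 to 17474991 counts limit low genes: 0 counts allow up to 3, and floors cover counting error only. Named genes were the 3 highest and 2 lowest of each complex, undetected and paralogous genes, core subunits, extreme ratios, opposite-strand overlaps, table differences and small coding shares. The members and lists were chosen with earlier results of these data known. The values of 1 gene of complex I are not reported here; it is included in counts and medians. Python 3.11.15, pandas 2.3.3 and numpy 2.4.6 were used.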

Additional observations from a re-analysis of the deposited data

Results flagged for a closer look

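Among genes whose symbols match but which the annotation does not class as protein-coding, 2 carried signal outside the genes reported on, above the limit of 3 counts that a count of 0 allows in each library. Ndufb1-ps, classed as a bidirectional promoter long noncoding RNA (chr12:101968090-101977068, minus strand), had 463, 508 and 691 expected counts in libraries 1, 2 and 3, summing to 1662.77, and a TPM of 103 ± 20.99 (SD, n = 3). Ndufb4c, a processed pseudogene of Ndufb4, had 480, 221 and 290, summing to 990.61. The other 11 such genes, all processed pseudogenes, had at most 4.56 counts in total.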

How the results depend on the processing

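Of the 86 genes tested, 80 varied between libraries. That number fell to 22 with the chi-square divided by its median excess and to 31 with its median over the degrees of freedom, the form computed first and replaced after its counts were seen. Without 1 library it ranged from 39 (without library 1) to 71. The 30 genes higher in library 1 became 42 with DESeq2 size factors, 34 with TMM, 25 in the whole-number table, 19 with the divided chi-square and 13 at 2-fold. The 3 lower genes became 1 with DESeq2 size factors, 1 at 2-fold and 0 in the whole-number table. Median TPM of complexes I to V in the whole-number table, per kilobase and scaled to 1000000, was 185, 232, 229, 95.2 and 180. For complex IV it was 260 with detected genes only and without restricted isoforms, and 164 with Ndufa4 added. Complex V reached 225 with pseudogene copies summed. The share of Atp5g3 in the c ring was 97.6% in the whole-number table and 42.2% with copies summed; shares of Cox4i1, Cox6a1, Cox6b1 and Cox7a2 there were 100.0%, 99.8%, 99.4% and 99.5%. The cause of these shifts was not tested.

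Among genes that varied between libraries, the log2 ratio of library 1 changed sign for 11 with ratios near 0. DESeq2 size factors shift all genes by nearly the same amount, and with them 13 of the 86 changed sign, 9 of which varied. With DESeq2 size factors it was 0.053 for Atp5c1, 0.078 for Atp5j2, 0.055 for Cox6b1, 0.065 for Uqcrc2, 0.011 for Atp5l, 0.114 for Uqcrb, 0.095 for Ndufs4, 0.040 for Atp5a1 and 0.060 for Cox7b. In the whole-number table it was 0.050 for Atp5c1, 0.112 for Atp5j2, 0.049 for Cox6b1, 0.066 for Uqcrc2, 0.025 for Ndufs4 and 0.037 for Atp5a1. With TMM it was 0.015 for Uqcrb, and on the TPM scale -0.044 for Sdhc and -0.053 for Cox6c. No paired analysis was possible because the libraries form 1 group.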
